A study of Mus musculus with 6 samples.

Results

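The 7 genes described here encode Fc receptors, receptor subunits and an Fc receptor-like protein of mouse macrophages. The members are *Fcgr1*, *Fcgr2b*, *Fcgr3*, *Fcgr4*, *Fcer1g*, *Fcgrt* and *Fcrls*. They were taken by symbol from the 22248 genes listed in the deposited FPKM matrix (fragments per kilobase of transcript, scaled to library size), and all 7 were found. They were chosen from the contrast that is described below, so their own differences between genotypes are given as a description without a test. The cells were bone-marrow-derived macrophages (BMDMs), which form from marrow under macrophage colony-stimulating factor, and they had not been stimulated. The control libraries (n = 3) came from *Lyz2cre* mice and the CITED2-deficient libraries (n = 3) from *Cited2 fl/fl*:*Lyz2cre* mice. Both genotypes were on the C57BL/6 strain, were labelled as postnatal week 10 and carried Cre recombinase under the *Lyz2* promoter, which is active in myeloid cells. The paper's methods give a younger age for the marrow donors than the week 10 of the labels. The floxed alleles of *Cited2*, a transcriptional coregulator, were present in the second genotype alone. The series text gives 3 mice per genotype, but no label ties a library to an animal, so the errors and p-values describe the spread between these libraries.

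Fc gamma receptors bind the constant part of IgG. *Fcgr1*, *Fcgr3* and *Fcgr4* encode the ligand-binding chains of the activating receptors of the mouse, and each needs the gamma chain encoded by *Fcer1g*, whose tyrosine activation motif (ITAM) recruits the kinase SYK. *Fcgr2b* encodes the inhibitory receptor, whose own inhibitory motif (ITIM) recruits phosphatases. In macrophages the balance of both kinds sets how cells respond to immune complexes and antibody-coated particles. *Fcgrt* encodes the heavy chain of the neonatal Fc receptor, which pairs with beta-2-microglobulin and returns IgG from endosomes to the cell surface. *Fcrls*, an Fc receptor-like gene, is best known as part of the expression signature of mouse microglia.

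The start regions of 3 members are shown first, picked because *Fcgr1* and *Fcgr4* rose and *Fcgrt* fell in CITED2-deficient BMDMs. *Fcrls* and *Fcgr3*, which also fell, are described below without their sequences. Each sequence holds the 250 bases before the RefSeq gene start, read 5′ to 3′ on the strand of the gene (GRCm38.p6, the mm10 build). *Fcgr1* is at chr3:96293970-96294219 on the minus strand, *Fcgr4* at chr1:171018676-171018925 on the plus strand, and *Fcgrt* at chr7:45103823-45104072 on the minus strand. Capitals mark matches to 3 motifs searched on both strands, namely the interferon gamma-activated site (GAS, TTCNNNGAA), an interferon-response type pair (GAAANNGAAA) and the core of the PU.1 site (GAGGAA). On the opposite strand that core is written as TTCCTC.
Fcgr1: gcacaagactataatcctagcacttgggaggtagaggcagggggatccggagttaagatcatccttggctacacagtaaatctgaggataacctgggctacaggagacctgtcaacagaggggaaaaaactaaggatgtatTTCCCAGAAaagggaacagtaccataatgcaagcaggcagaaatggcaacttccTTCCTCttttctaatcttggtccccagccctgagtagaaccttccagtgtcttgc
Fcgr4: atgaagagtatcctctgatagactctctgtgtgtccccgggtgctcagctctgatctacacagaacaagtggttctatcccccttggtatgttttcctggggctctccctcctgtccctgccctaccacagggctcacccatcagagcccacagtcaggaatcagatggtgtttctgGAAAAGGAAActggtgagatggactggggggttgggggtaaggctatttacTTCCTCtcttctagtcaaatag
Fcgrt: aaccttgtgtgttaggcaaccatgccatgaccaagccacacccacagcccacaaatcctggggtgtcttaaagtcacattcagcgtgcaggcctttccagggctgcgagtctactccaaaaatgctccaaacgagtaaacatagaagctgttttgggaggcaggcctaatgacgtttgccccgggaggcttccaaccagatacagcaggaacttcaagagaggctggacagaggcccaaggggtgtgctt
The *Fcgr1* window held a GAS match, TTCCCAGAA, 109 to 101 bases before the start and a PU.1 match 55 to 50 bases before it. The *Fcgr4* window held an interferon-response type match, GAAAAGGAAA, 73 to 64 bases before the start and a PU.1 match 22 to 17 bases before it. The *Fcgrt* window held no match to the 3 motifs.

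Promoter windows were matched for 7 of the 7 members. A PU.1 match was also present in *Fcgr3*, 6 to 1 bases before the start of its first window, and in *Fcrls*, 144 to 139 bases before the start, while *Fcer1g* and *Fcgr2b* held none of the 3 motifs. Over 32851 RefSeq promoter windows of the same length, a GAS match occurred in 7.02%, an interferon-response type match in 2.98% and a PU.1 match in 23.3%. *Fcgr3* and *Fcrls* were lower in CITED2-deficient BMDMs although each held a PU.1 match, so no link between a match and a direction is read. These matches describe letters and not bound sites, and no binding was measured here.

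The recovered depth was 17289286 to 18952077 fragments in the control libraries and 22583995 to 26100410 in the CITED2-deficient libraries. *Cited2* itself was at 71.7, 79.3 and 75.5 FPKM in control replicates 1 to 3 and at 9.27, 7.22 and 7.53 FPKM in the CITED2-deficient replicates, so each library matched its label. Of all genes tested by the rule given below, 34.6% were lower and 16.7% higher in CITED2-deficient BMDMs. Of 8 macrophage markers, which include the member *Fcgr1*, 5 were lower in CITED2-deficient BMDMs, 1 was higher (*Fcgr1*) and 2 did not pass. The most abundant were *Adgre1* at 2214 ± 20.9 FPKM in control and 1776 ± 34.9 FPKM in CITED2-deficient BMDMs (SD, n = 3), and *Cd68* at 1654 ± 43.3 and 1717 ± 7.03 FPKM. *Itgam* was at 89.7 ± 0.865 and 50.9 ± 1.69 FPKM, and *Lyz2*, whose promoter drives Cre in both genotypes, at 31.3 ± 1.03 and 9.75 ± 0.333 FPKM. *Lyz2* shares sequence with *Lyz1*, so its fragments could have been divided, and the cause of its fall was not tested. The summed stromal markers were 62.1 to 73.8 FPKM in control libraries and 231 to 637 FPKM in CITED2-deficient libraries, and 9 of the 9 stromal markers tested were higher. *Col1a1*, a collagen gene of stromal cells, was at 15.4 ± 1.20 FPKM in control libraries (SD, n = 3) and at 305, 62.0 and 62.6 FPKM in CITED2-deficient replicates 1 to 3, so replicate 1 stood apart. *Col1a2* was at 16.7 ± 1.48 FPKM in control libraries and at 175, 66.3 and 63.6 FPKM in CITED2-deficient libraries.

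CITED2-deficient BMDMs had more *Fcgr1* and *Fcgr4* RNA, less *Fcgr3*, *Fcgrt* and *Fcrls* RNA, and levels of *Fcer1g* and *Fcgr2b* that overlapped those of control BMDMs. Differences were taken on the log2(FPKM + 1) scale with limma over 11687 genes with a mean of at least 1 FPKM, and the threshold was a Benjamini-Hochberg adjusted p of 0.05. By that rule 5 of the 7 members passed, 2 higher and 3 lower in CITED2-deficient BMDMs. Of all genes tested, 51.3% passed, 16.7% as higher and 34.6% as lower (1950 and 4044 genes), and median-ratio scaling gave 2696 higher and 2490 lower. With a difference of at least 2-fold as well, 4 members and 5.26% of all genes passed, and the groups did not overlap for 5 members and for 59.9% of all genes. Because the members were chosen from this contrast, nothing is read from these counts. The median log2 difference over all genes tested was -0.10. In bulk RNA, a change in the share of cells that make a transcript and a change in RNA per cell cannot be told apart.

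**Figure D1:**
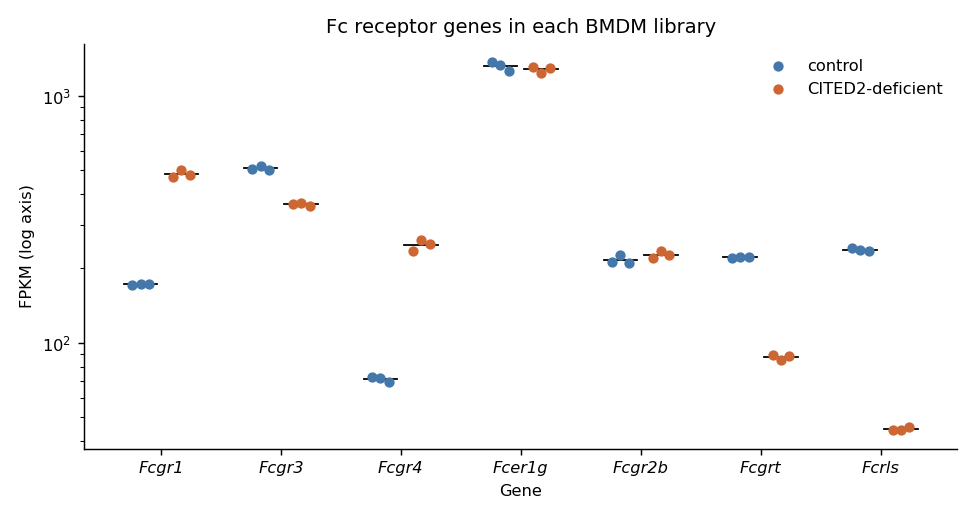
FPKM of the 7 members in each library, on a log axis. Points are libraries (blue, control, n = 3; orange, CITED2-deficient, n = 3) and black lines are group means. The groups lie apart for *Fcgr1*, *Fcgr3*, *Fcgr4*, *Fcgrt* and *Fcrls* and overlap for *Fcer1g* and *Fcgr2b*.

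Among the activating receptors, *Fcgr1* (ENSMUSG00000015947, chromosome 3, 96282909 to 96293969, minus strand, mm10), which encodes the high-affinity IgG receptor, was at 172, 172 and 173 FPKM in control replicates 1 to 3. It was at 468, 501 and 478 FPKM in CITED2-deficient replicates 1 to 3. The lowest CITED2-deficient library thus lay far above the highest control library. The means were 172 ± 0.793 and 482 ± 17.2 FPKM (SD, n = 3), a 2.80-fold ratio, and the log2 difference was 1.48 (SE 0.03). *Fcgr1* ranked 204 among all genes tested when ordered from the highest difference.

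*Fcgr4* (ENSMUSG00000059089, chromosome 1, 171018920 to 171029761, plus strand), which encodes an activating receptor for IgG2a and IgG2b, was at 72.3, 72.2 and 69.3 FPKM in control libraries. It was at 236, 261 and 250 FPKM in CITED2-deficient libraries, again with no overlap. The means were 71.3 ± 1.73 and 249 ± 12.4 FPKM (SD, n = 3), a 3.50-fold ratio, and the log2 difference was 1.79 (SE 0.04). It was the least abundant member in control BMDMs and the fourth most abundant in CITED2-deficient BMDMs.

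*Fcgr3* (ENSMUSG00000059498, chromosome 1, 171051174 to 171064935, minus strand), which encodes a low-affinity activating receptor, went the other way. It was at 505, 522 and 502 FPKM in control libraries and at 364, 369 and 357 FPKM in CITED2-deficient libraries. All CITED2-deficient values lay below all control values. The means were 509 ± 11.2 and 363 ± 5.64 FPKM (SD, n = 3), and the log2 difference was -0.49 (SE 0.03). Of the 31-base words in *Fcgr3* transcripts, 13.4% also occurred in *Fcgr2b*, so fragments from that stretch could have been divided between both genes. In *Fcgr4* transcripts 1.31% of the words occurred in any other gene, and in *Fcgr1* transcripts none did.

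*Fcer1g* (ENSMUSG00000058715, chromosome 1, 171229572 to 171234365, minus strand), the shared gamma chain, was the most abundant member in both genotypes. Its values were 1367, 1338 and 1264 FPKM in control libraries and 1304, 1234 and 1303 FPKM in CITED2-deficient libraries, and the groups overlapped. The means were 1323 ± 53.2 and 1280 ± 40.1 FPKM (SD, n = 3), and the log2 difference was -0.05 (SE 0.04). Its sign turned under median-ratio scaling, where the difference was 0.06.

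*Fcgr2b* (ENSMUSG00000026656, chromosome 1, 170958617 to 170976547, minus strand), the inhibitory receptor, was at 212, 226 and 210 FPKM in control libraries and at 220, 236 and 226 FPKM in CITED2-deficient libraries. The groups overlapped here too. The means were 216 ± 8.87 and 227 ± 8.02 FPKM (SD, n = 3), and the log2 difference was 0.07 (SE 0.04), or 0.175 under median-ratio scaling.

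*Fcgrt* (ENSMUSG00000003420, chromosome 7, 45092990 to 45103851, minus strand) was at 221, 223 and 222 FPKM in control libraries. It was at 89.1, 85.2 and 88.2 FPKM in CITED2-deficient libraries, all below the control values. The means were 222 ± 1.16 and 87.5 ± 2.04 FPKM (SD, n = 3), which is 2.53-fold lower, and the log2 difference was -1.33 (SE 0.03). *Fcgrt* ranked 76 among all genes tested when ordered from the lowest difference.

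*Fcrls* (ENSMUSG00000015852, chromosome 3, 87250758 to 87263738, minus strand) had the largest difference of the 7 members. It was at 242, 237 and 236 FPKM in control libraries and at 44.3, 44.2 and 45.5 FPKM in CITED2-deficient libraries. No library of one genotype came near those of the other. The means were 238 ± 3.03 and 44.6 ± 0.705 FPKM (SD, n = 3), which is 5.33-fold lower, and the log2 difference was -2.39 (SE 0.03). It ranked 12 from the lowest difference among all genes tested.

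The spread between replicates was small for each member. The coefficient of variation was 0.46% to 4.10% in control and 1.55% to 4.97% in CITED2-deficient libraries. From 3 libraries per group such values are imprecise, so the lowest, for *Fcgr1* and *Fcgrt* in control, are not read as the true spread. The fewest fragments behind any member value were 1477, for *Fcrls* in a CITED2-deficient library, and the most were 19886, for *Fcgr1*. Leaving out each library in turn moved the log2 difference of *Fcgr1* between 1.45 and 1.5, that of *Fcgr4* between 1.76 and 1.83 and that of *Fcrls* between -2.40 and -2.38. CITED2-deficient replicate 1, where *Col1a1* stood apart, is among the libraries left out in these ranges. Replicates 2 and 3 were also above control in *Col1a1*, at 62.0 and 62.6 FPKM against 15.4 ± 1.20 FPKM. The ranges therefore cannot show whether stromal RNA had a part in the member differences, which was not tested.

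**Figure D2:**
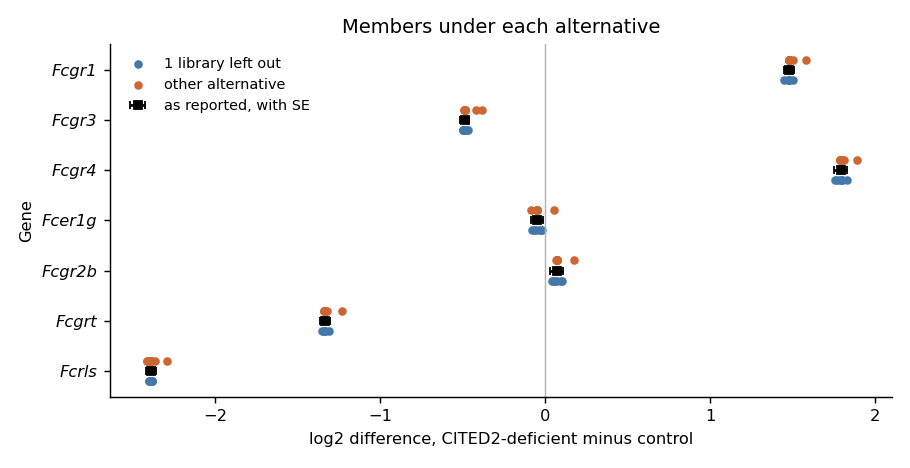
Log2 difference of each member between CITED2-deficient and control BMDMs (horizontal axis) as reported with its SE (black), with 1 library left out (blue) and under the other alternatives (orange). *Fcer1g* is the member whose values fall on both sides of 0.

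FPKM are divided by length, which allows a rough comparison of levels between genes. The length that fitted the values was the mean over all annotated transcripts, 7 for *Fcgr2b* and 1 for *Fcgr4*. It need not match the transcripts expressed, so close ranks are uncertain, and the shares and ratios below carry the same limit. Within that limit, the order of the levels was rearranged. In control BMDMs it ran from *Fcer1g* through *Fcgr3*, *Fcrls*, *Fcgrt*, *Fcgr2b* and *Fcgr1* to *Fcgr4*, and the ranges of *Fcgrt* and *Fcgr2b* overlapped. In CITED2-deficient BMDMs it ran from *Fcer1g* through *Fcgr1*, *Fcgr3*, *Fcgr4*, *Fcgr2b* and *Fcgrt* to *Fcrls*. Neighbors in that order did not overlap, although the lowest *Fcgr4* value and the highest *Fcgr2b* value were both 236 FPKM.

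The summed FPKM of the 4 Fc gamma receptor genes was 969 ± 21.0 in control and 1322 ± 40.6 in CITED2-deficient BMDMs (SD, n = 3). *Fcgr3* made up 52.6% ± 0.0428 of that sum in control and 27.5% ± 0.668 in CITED2-deficient BMDMs. The share of *Fcgr1* was 17.8% ± 0.405 in control and 36.5% ± 0.180 in CITED2-deficient BMDMs, and that of *Fcgr4* was 7.35% ± 0.15 and 18.8% ± 0.422. *Fcgr2b* held 22.3% ± 0.428 and 17.2% ± 0.111. The leading receptor transcript was therefore *Fcgr3* in each control library and *Fcgr1* in each CITED2-deficient library.

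**Figure D3:**
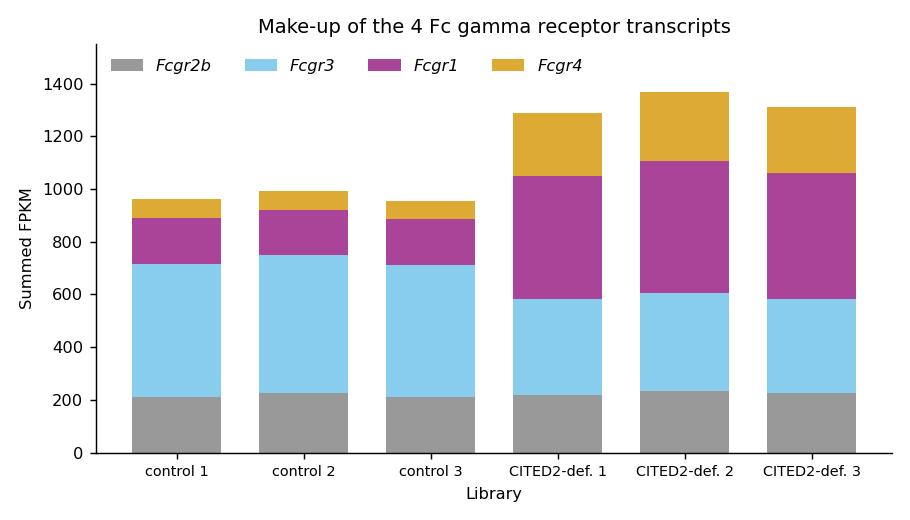
Summed FPKM of *Fcgr2b*, *Fcgr3*, *Fcgr1* and *Fcgr4* (stacked from the bottom) in each of the 6 libraries. *Fcgr3* is the tallest block in the control bars and *Fcgr1* in the CITED2-deficient bars.

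The ratio of activating (*Fcgr1*, *Fcgr3* and *Fcgr4*) to inhibitory (*Fcgr2b*) FPKM was 3.52, 3.39 and 3.55 in control libraries and 4.86, 4.80 and 4.79 in CITED2-deficient libraries. The means were 3.49 ± 0.0853 and 4.82 ± 0.0378 (SD, n = 3), a factor of 1.38, and the groups did not overlap. Leaving out *Fcgr1* gave a ratio of 2.69 ± 0.0528 in control and 2.70 ± 0.0314 in CITED2-deficient BMDMs, a factor of 1.00. In that ratio the rise of *Fcgr4* stood against the fall of *Fcgr3*. Without *Fcgr4* the factor was 1.18, and without *Fcgr3* it was 2.85. *Fcer1g* FPKM stood at 1.76 ± 0.0645 times the summed activating chains in control and at 1.17 ± 0.0699 times in CITED2-deficient BMDMs.

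Of the other Fc receptor genes, 11 were listed and 3 passed the filter on low values. *Trim21*, which encodes a cytosolic antibody receptor, rose from 23.5 ± 2.03 to 29.9 ± 0.722 FPKM (SD, n = 3; log2 difference 0.34, adjusted p = 0.00187 in limma). *Fcrl1*, an Fc receptor-like gene of B cells, rose from 20.2 ± 2.13 to 26.3 ± 1.02 FPKM (log2 difference 0.37, adjusted p = 0.00286 in limma). *Fcrl5* did not pass, with a difference of 0.40 (adjusted p = 0.0646 in limma). The IgE receptor chains *Fcer1a* and *Ms4a2*, together with *Fcer2a*, *Fcamr*, *Fcrla* and *Fcrl6*, were below 1 FPKM in each library. Beside *Fcrl1*, the summed B cell markers were 8.88 to 11.8 FPKM in control and 11.6 to 12.2 FPKM in CITED2-deficient libraries, led by *Cd22*, with 4 of 7 markers, among them *Ms4a1* and *Pax5*, not passing the filter. Of the 3 tested, *Ebf1* rose from 0.503 ± 0.0877 to 1.56 ± 0.114 FPKM (adjusted p = 0.00138 in limma) and 2 did not pass. Their part in the result was not tested.

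Genes that act below the ITAM, from kinases to phospholipases, moved in both directions. All 28 genes of this list were tested, of which 7 rose, 9 fell and 12 did not pass. Of all genes tested, 16.7% rose and 34.6% fell, and no pattern is read from the counts of this list. The median log2 difference was -0.06 against -0.10 for all genes tested. Under median-ratio scaling 12 rose and 4 fell, so the balance of this list depended on the scaling. *Pik3cb*, a catalytic chain of phosphoinositide 3-kinase, rose from 14.4 ± 0.50 to 22.4 ± 1.01 FPKM (SD, n = 3; log2 difference 0.60, adjusted p = 1.97e-05 in limma). The kinase gene *Src* (0.57) also rose. *Plcg1*, a phospholipase C, fell from 11.4 ± 0.325 to 7.40 ± 0.451 FPKM (log2 difference -0.56, adjusted p = 0.000123 in limma), and *Pik3r2* (-0.43) and *Pik3ca* (-0.25), further chains of phosphoinositide 3-kinase, fell as well. *Pik3ca* did not pass under median-ratio scaling. *Tyrobp*, the other ITAM adaptor of macrophages, was at 1285 ± 5.55 FPKM in control and 1094 ± 50.4 FPKM in CITED2-deficient BMDMs (log2 difference -0.23). *Prkcd*, a protein kinase C, was the next most abundant by mean level after *Tyrobp* and was at 245 ± 6.66 and 246 ± 3.73 FPKM, with a difference of 0.01 that did not pass.

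Of 13 genes of ITIM inhibition and of the negative control of SRC kinases, 7 rose, 3 fell and 3 did not pass. The shares over all genes tested were 16.7% higher and 34.6% lower, and the median log2 difference of the list was 0.09. The rises numbered 4 without control replicate 1, without control replicate 3 or without CITED2-deficient replicate 3. *Cblb*, a ubiquitin ligase, rose from 31.1 ± 2.09 to 53.1 ± 2.72 FPKM (SD, n = 3; log2 difference 0.75, adjusted p = 6.94e-06 in limma). *Inppl1* (0.68), which encodes the inositol phosphatase SHIP2, and *Csk* (0.41), the kinase that restrains SRC kinases, rose too. *Dok2*, an adaptor that restrains RAS signaling, fell from 121 ± 1.84 to 58.0 ± 2.53 FPKM (log2 difference -1.05, adjusted p = 5.19e-08 in limma). *Dok3* (-0.35) and *Inpp5d* (-0.18), which encodes the phosphatase SHIP1 that *Fcgr2b* recruits, fell. *Inpp5d* did not pass under median-ratio scaling. *Ptpn6*, which encodes SHP-1 and was the most abundant of the list, was at 315 ± 1.16 and 336 ± 13.4 FPKM and passed narrowly (adjusted p = 0.0411 in limma), and it did not pass in 8 of the alternatives.

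The actin machinery of the phagocytic cup was measured with 34 genes tested, of which 9 rose, 14 fell and 11 did not pass. Over all genes tested 16.7% were higher and 34.6% lower, and the median log2 difference of the list was -0.07. Under median-ratio scaling 11 rose and 6 fell. *Actr3*, a core subunit of the ARP2/3 complex that branches actin, rose from 844 ± 11.0 to 1275 ± 32.8 FPKM (SD, n = 3; log2 difference 0.59, adjusted p = 2.32e-07 in limma). *Myo1g* (0.34), a membrane myosin, and *Actr2* (0.28), the partner of *Actr3*, rose. *Pak1*, a kinase activated by RAC, fell from 27.8 ± 0.792 to 17.1 ± 1.32 FPKM (log2 difference -0.67, adjusted p = 1.99e-05 in limma), and *Arpc3* (-0.44), another ARP2/3 subunit, and *Was* (-0.27), which activates the complex, fell. *Arpc1b*, a further subunit, was at 987 ± 2.88 and 930 ± 40.0 FPKM and did not pass (log2 difference -0.09). Subunits of the ARP2/3 complex thus included both rises and falls.

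**Figure D4:**
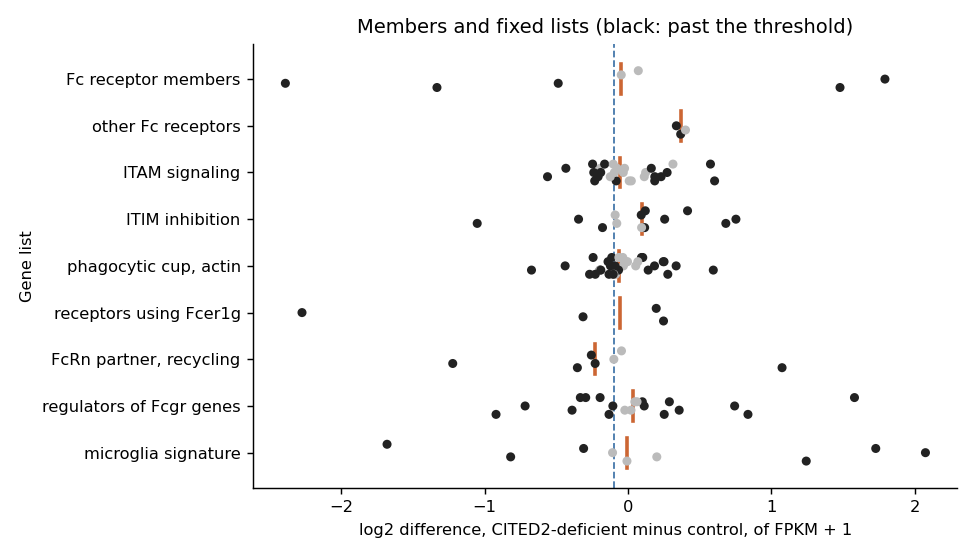
Log2 difference of FPKM + 1 between CITED2-deficient and control BMDMs for the members and for each gene list (rows). Points are genes, black where past the threshold and gray where not, orange bars are list medians, and the dashed line is the median of all genes tested, -0.10.

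Of the receptors other than Fc gamma receptors that signal through the gamma chain, 4 were tested. *Clec4n*, which encodes Dectin-2, fell from 31.4 ± 2.10 to 5.74 ± 0.862 FPKM (SD, n = 3; log2 difference -2.27, adjusted p = 1.22e-07 in limma). *Clec4d*, a related C-type lectin, fell from 338 ± 5.46 to 272 ± 14.2 FPKM (log2 difference -0.31). *Clec4e*, which encodes Mincle, rose from 14.5 ± 0.475 to 17.5 ± 1.44 FPKM (log2 difference 0.25, adjusted p = 0.0128 in limma). *Pira2* belongs to a family of similar genes whose fragments could have been divided, and it was at 6.80 ± 0.274 and 7.94 ± 0.318 FPKM (log2 difference 0.20, adjusted p = 0.0395 in limma) and did not pass in 7 of the alternatives. *Oscar* and *Gp6* were below 1 FPKM in each library.

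The partner chain of *Fcgrt* moved opposite to it. *B2m*, which encodes beta-2-microglobulin, was at 2502, 2510 and 2441 FPKM in control libraries and 5185, 5271 and 5237 FPKM in CITED2-deficient libraries (log2 difference 1.07, adjusted p = 2.29e-09 in limma). The FPKM of *Fcgrt* relative to *B2m* was 0.0893 ± 0.00151 in control and 0.0167 ± 0.000518 in CITED2-deficient BMDMs (SD, n = 3). Of the 7 genes tested among *B2m* and the endosomal recycling genes, 1 rose, 4 fell and 2 did not pass. Over all genes tested 16.7% were higher and 34.6% lower, and the median log2 difference of the list was -0.23. *Rab4a*, a GTPase of rapid recycling, fell from 12.1 ± 0.449 to 4.64 ± 0.629 FPKM (log2 difference -1.22, adjusted p = 5.22e-06 in limma), and *Eea1* (-0.35) and *Rab11a* (-0.26), an early endosome tether and a GTPase of slow recycling, fell less.

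Genes known to regulate Fc gamma receptor expression were also counted, and of 20 tested, 8 rose, 8 fell and 4 did not pass. The shares over all genes tested were 16.7% higher and 34.6% lower, and the median log2 difference of the list was 0.03. Under median-ratio scaling 10 rose and 5 fell. *Irf1*, an interferon-induced transcription factor gene, was at 72.1, 73.6 and 73.2 FPKM in control libraries and 119, 144 and 131 FPKM in CITED2-deficient libraries (log2 difference 0.84, adjusted p = 4.99e-06 in limma). *Socs1* (0.74), an inhibitor of JAK kinases, rose as well. *Ifngr1*, the ligand-binding chain of the interferon gamma receptor, fell from 250 ± 3.59 to 132 ± 3.88 FPKM (SD, n = 3; log2 difference -0.92, adjusted p = 3.02e-08 in limma), and *Tgfbr2* (-0.72) and *Il4ra* (-0.39), receptors for TGF-beta and interleukin-4, fell. *Spi1*, which encodes PU.1, was at 459 ± 5.03 and 492 ± 23.1 FPKM and passed narrowly (adjusted p = 0.0402 in limma), and it did not pass in 6 of the alternatives. *C5ar1*, the receptor for the complement fragment C5a, fell from 424 ± 9.0 to 346 ± 8.16 FPKM.

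*Fcrls* was compared with other genes of the microglia signature, and they did not share a direction. Of 9 tested, 3 rose, 3 fell and 3 did not pass, beside 16.7% higher and 34.6% lower of all genes tested. The median log2 difference of the list was -0.01. *Gpr34* fell from 6.08 ± 0.849 to 1.20 ± 0.115 FPKM (SD, n = 3; log2 difference -1.68, adjusted p = 3.92e-06 in limma), and *P2ry12*, a purinergic receptor, fell from 4.69 ± 0.388 to 2.22 ± 0.142 FPKM. *Csf1r*, the receptor for macrophage colony-stimulating factor, fell from 1135 ± 12.5 to 916 ± 10.5 FPKM. *Sparc*, a matrix protein gene that stromal cells also express, was at 138, 63.0 and 63.4 FPKM in CITED2-deficient replicates 1 to 3 against 18.9 ± 2.67 FPKM in control, a log2 difference of 2.07, or 1.70 without CITED2-deficient replicate 1. *Olfml3* (1.73) and *Tmem119* (1.24) were highest in the same library, and without it their differences were 1.54 and 0.77. The stromal markers given above moved with these 3 genes, and their part in the result was not tested.

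The chromosomal surroundings of the members were examined, since *Fcgr2b*, *Fcgr4*, *Fcgr3* and *Fcer1g* lie in one cluster on chromosome 1. Within 200 kb of the start of any member, 47 other genes were tested, of which 9 rose and 17 fell. Their median log2 difference was -0.14, and median-ratio scaling gave 14 rises and 11 falls. Of all genes tested, 16.7% rose and 34.6% fell, so no local pattern is read from these counts or from the smaller ones below. Around *Fcrls*, 3 of 4 tested genes rose and none fell, while *Fcrls* itself was lower. They were *Kirrel* (log2 difference 0.87, adjusted p = 0.00207 in limma, and 0.72 without CITED2-deficient replicate 1, where it was highest), *Fcrl1* and *Cd5l*, a gene of tissue macrophages that was at 142 and 195 FPKM on average and is named after its values were seen. Around *Fcgrt*, 3 of 18 rose and 7 fell. *Rcn3*, which starts 11.6 kb from *Fcgrt*, rose from 3.03 ± 0.806 to 7.98 ± 3.82 FPKM (SD, n = 3; log2 difference 1.08, adjusted p = 0.0115 in limma), and *Tead2* (0.67) rose as well. *Rcn3* and *Tead2* were highest in CITED2-deficient replicate 1, and without it their differences were 0.77 and 0.50, the latter no longer past the threshold. Around *Fcgr4* 1 gene rose and 2 fell of 5 tested, and around *Fcer1g* 1 of 15 rose, *Nectin4* (0.67), and 7 fell.

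**Figure D5:**
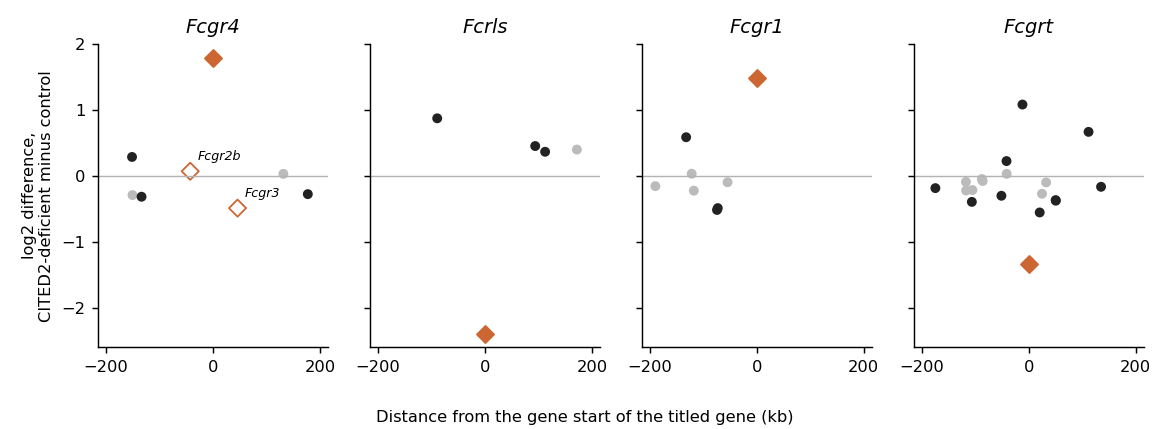
Log2 difference between CITED2-deficient and control BMDMs (vertical axis) of genes within 200 kb of *Fcgr4*, *Fcrls*, *Fcgr1* and *Fcgrt* against the distance of their starts in kb. Filled diamonds are the titled genes, open diamonds *Fcgr2b* and *Fcgr3*, black points genes past the threshold and gray points genes that were not. The filled diamonds lie beyond the surrounding genes in each panel, but the titled genes are the members with the largest differences in this contrast. The differences of *Fcer1g* (-0.05) and *Fcgr2b* (0.07) lay within the range of their own neighbors, so no local pattern is read.

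For each member the genes with the most similar pattern were found by the Euclidean distance between centered log2(FPKM + 1) profiles over the 6 libraries. *Sp100*, which encodes a nuclear body protein, was closest to *Fcgr1* at a distance of 0.0531, with 104.5 ± 1.31 FPKM in control and 287 ± 9.99 FPKM in CITED2-deficient BMDMs (SD, n = 3), and *Parp9* followed at 0.0769. *Igtp*, a GTPase gene, was closest to *Fcgr4* at 0.104, and *H2-T22*, an MHC class I gene with close relatives, followed at 0.124. *Abca9* (0.0917) and *Hgsnat* (0.10), which encode a transporter and a lysosomal acetyltransferase, were closest to *Fcgrt*. *Slco2b1*, an organic anion transporter gene, was closest to *Fcrls* at 0.103, with 48.0 ± 1.58 and 8.39 ± 0.355 FPKM, and *Lyz1* was next at 0.232. *Lyz1* shares sequence with *Lyz2*, so its fragments could have been divided. *Mepce* (0.0346) and *Anp32a* (0.0405) were closest to *Fcgr3*, *Mrps25* (0.0361) and *Taf11* (0.0433) to *Fcer1g*, and *Rnps1* (0.0336) and *Mesd* (0.0459) to *Fcgr2b*. These distances describe 6 libraries that differ mainly by genotype.

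Markers of other cells of marrow cultures moved beside the members, and their part in the results was not tested. Their counts stand beside 16.7% higher and 34.6% lower of all genes tested. NK and T cell markers summed to 0.748 to 1.06 FPKM in control and 1.83 to 2.70 FPKM in CITED2-deficient libraries, with none passing the filter. The higher sum came almost all from *Klrk1*, at 0.145 ± 0.0601 and 1.36 ± 0.192 FPKM (SD, n = 3). The other 7 markers, among them *Cd3e*, *Ncr1* and *Nkg7*, were below 1 FPKM in each library. Neutrophil markers, led by *S100a9*, summed to 638 to 707 FPKM and 506 to 602 FPKM, and of 8 tested 2 rose, 5 fell and 1 did not pass, with *Ly6g* below 1 FPKM on average. *Mpo* fell from 16.2 ± 2.32 to 1.95 ± 0.271 FPKM, while *Retnlg* rose from 0.649 ± 0.217 to 4.50 ± 0.211 FPKM. Monocyte markers, led by *F13a1*, summed to 213 to 226 FPKM and 101 to 112 FPKM, and 4 of 6 rose and 2 fell. Megakaryocyte markers summed to 314 to 343 FPKM and 78.4 to 89.7 FPKM, nearly all from *Pf4*, which fell, while the other markers tested, *Ppbp* and *Itga2b*, rose and *Gp9* was below 1 FPKM on average. Endothelial markers, led by *Kdr*, summed to 12.3 to 14.2 FPKM and 38.5 to 43.0 FPKM, and of 4 tested 3 rose and 1 did not pass. Dendritic cell markers summed to 0.935 to 1.34 FPKM and 2.35 to 2.54 FPKM, and mast cell and basophil markers to 1.09 to 1.84 FPKM and 0.421 to 0.618 FPKM, with none of either list passing the filter.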

How the data were processed

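RNA was measured in 6 BMDM libraries, 3 control and 3 CITED2-deficient, grouped by their titles. The authors mapped reads to mm10 with STAR and deposited FPKM per gene and library from Cuffdiff with the GENCODE annotation, and the sources used here name no tool versions. FPKM are scaled to library size, so large changes in some genes shift the others. Transcript lengths from GENCODE vM21 were used to turn FPKM back into fragments, and 96.1% of 22220 matched genes gave values within 0.02 of a whole number in each library. No pair of replicates matched within sampling noise (mean chi-square 2.26 to 5.87 per gene).

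The tool was limma 3.58.1 (R 4.3.3), run on log2(FPKM + 1) of genes whose mean FPKM reached 1. It used a trend of the variance, and p-values were adjusted by Benjamini-Hochberg with a threshold of 0.05. Fold changes on this scale understate those of low genes. Cuffdiff, which the study used, needs alignments and was not repeated. The smallest exact permutation p that 3 libraries per group allow is 0.1. The fit was first tested on simulated data with few changed genes, balanced in direction, and the same dispersion for every gene. That setting differs from these data, where 4044 genes were called lower and 1950 higher. The simulation therefore cannot show how the scaling acts here.

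The members and the gene lists were chosen with earlier results of these data known. All members were named, with up to 3 rises and 3 falls and the 2 most abundant genes of each list, the leading and the near-absent markers of each cell type, the 4 neighbors with the largest differences and the 2 genes of closest pattern for each member. Some genes under this rule are left unnamed and are not reported here. Alternatives were pseudocounts of 0.1 and 0.5, no filter, a minimum of 5 FPKM, quantile normalization, median-ratio scaling, no variance trend, fits without each library, a replicate block, limma-voom on the recovered fragments and a window of 500 kb. The count of shared 31-base words was added after the data had been seen. Promoter windows came from RefSeq (GRCm38.p6).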

Additional observations from a re-analysis of the deposited data

How the results depend on the processing

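*Fcgr1*, *Fcgr4*, *Fcgr3*, *Fcgrt* and *Fcrls* kept their direction and stayed past the threshold in 15 of 15 alternatives, while *Fcer1g* and *Fcgr2b* passed in 1 of 15 each. The alternatives refit the same 6 libraries from which the members were chosen, so they describe the processing and are no test of the members. Median-ratio scaling gave 5186 calls, 2696 higher and 2490 lower, against 1950 higher and 4044 lower with the FPKM as deposited. The titles number the replicates alike in both genotypes, but same-numbered libraries did not deviate together (correlations of 0.0138, 0.00784 and 0.0402), and a replicate block in the limma fit gave 5708 calls in place of 5994 and 5 members past the threshold, as without it. With the replicate block the calls of *Pira2* and *Ptpn6* were lost.

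The total counts past the threshold that moved by more than 1.5 times were those of the microglia signature with a mean FPKM of at least 5, where 2 passed and 3 were left to test, and of neighbor genes within 500 kb, where 54 passed among 99 tested. Counts in 1 direction moved more. Median-ratio scaling gave 12 higher and 4 lower ITAM genes, 11 and 6 actin genes, 10 and 5 regulators, and 14 and 11 neighbor genes. ITIM rises numbered 4 instead of 7 with no filter, with no variance trend, with the replicate block and without any 1 of 3 libraries, and the rises among receptors that use *Fcer1g* numbered 1 instead of 2 where the call of *Pira2* was lost. The factor between genotypes in the activating to inhibitory receptor ratio was 1.00 without *Fcgr1*, 2.85 without *Fcgr3* and 1.18 without *Fcgr4*, which follows from the genes left out, and it was 1.36 to 1.39 with each library left out in turn. With each library left out, the neighbor count was 24 to 26. Differences that turned sign were small and not past the threshold as reported. *Fcer1g* went from -0.05 to 0.06 under median-ratio scaling. The Arpc1b log2 difference was 0.0171 under median-ratio scaling. The Prkcd log2 difference ran from -0.00821 to 0.0298 with each library left out. The cause was not tested. The calls of *Spi1*, *Tead2*, *Tmem119*, *Rcn3*, *Inpp5d* and *Pik3ca* were lost under at least 1 alternative. No protein table was used, so a comparison of the receptor proteins was not run. The deeper CITED2-deficient libraries, at 1.34 times the control depth, measure low genes more precisely.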
